A study of Mus musculus with 8 samples.

Results

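The response to interferon gamma (IFNγ) was compared between peritoneal macrophages labelled FcgKO, which lack the Fc receptor γ chain, and wild-type (WT) macrophages of C57BL/6 mice. For each probe of the array, the log2 response to IFNγ in WT cells was subtracted from the log2 response in FcgKO cells, and the result is called the difference of responses. A positive value means a larger rise, or a smaller fall, in FcgKO cells. All 8 of the 8 samples of the series entered this comparison, with all 23978 probes of 25697 that carry a single gene symbol, and members were taken by these labels and not by measured values.

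Messenger RNA was measured on 8-sample Illumina MouseRef-8 v2.0 bead arrays, with 2 samples in each of 4 groups. These were FcgKO cells given IFNγ at 10 ng/ml for 6 h, FcgKO cells left unstimulated, WT cells given the same IFNγ, and WT cells left unstimulated. Before that, cells of all 4 groups adhered overnight in 10% fetal serum with 15% of an L929 supernatant that supplies M-CSF, and floating cells were taken off. The labels give the genotype as FcgKO without detail of the allele. They also do not say whether the 2 samples of a group were separate animals or separate wells, so a p-value here reflects sample-to-sample spread that may be technical only, and precision is limited by having 8 arrays.

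IFNγ is the main macrophage-activating cytokine of T and NK cells. Its receptor works through the kinases JAK1 and JAK2. The promoters of its target genes often hold the GAS motif, and IRF factors act on the ISRE motif that the type I IFN pathway also uses. The γ chain, encoded by Fcer1g, is an adaptor with an ITAM, a paired-tyrosine motif that recruits the kinase SYK. It carries the signal of activating IgG receptors and of other receptors such as Mincle (Clec4e) and TARM1, and it is needed for several of them to reach the cell surface. Tyrobp encodes the other ITAM adaptor of macrophages, which pairs with a different set of receptors.

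Array medians lay between 102.98 and 103.02 in deposited intensity, and the log2 values of the 2 samples of a group correlated across probes with r between 0.9959 and 0.9972, where probes are not independent replicates. Fcer1g was at 107 and 98.5 in FcgKO cells with IFNγ and 95.7 and 95.6 without, against 16987 and 18350.2 in WT cells with IFNγ and 17567 and 18350.2 without, so all 8 arrays matched their genotype labels. Adgre1, Marco and the rest of the 7 measured macrophage markers lay above the array median on every array. The 5 measured eosinophil markers lay below it on every array. The 11 mast cell and basophil markers summed to between 2120 and 2555 in intensity in FcgKO cells with IFNγ and 1946 to 2180 in unstimulated FcgKO cells, against 3522 to 3817 in WT cells with IFNγ and 3027 to 3268 in unstimulated WT cells. These sums were lower in FcgKO cells in both conditions, while the median difference of responses of these markers was -0.08 and 0 of them passed the test of the difference. In these bulk samples, fewer cells of a type and less RNA per cell cannot be told apart.

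The difference of responses was small for most probes. Its median over all probes was -0.00012 on the log2 scale and the middle 90% of probes lay between -0.18 and 0.19. It reached 1 or more for 9 probes and -1 or less for 3. Limma called 3 of 23978 probes at a Benjamini-Hochberg adjusted p below 0.05 (0.0125%), which were 0 with a higher response in FcgKO cells (0%) and 3 with a lower one. At an unadjusted p below 0.05, 1662 probes (6.93%) passed, 840 higher (3.5%) and 822 lower (3.43%). As a plain description of the spread, the lowest of the 4 responses formed by pairing the arrays of one genotype lay above the highest of the other for 4612 probes (19.2%), 2298 higher (9.58%) and 2314 lower (9.65%) in FcgKO cells. Responses were up on every array pair in FcgKO and down on every pair in WT cells for 502 probes (2.09%), and the reverse for 531 (2.21%). The median standard error of the difference was 0.08.

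**Figure D1:**
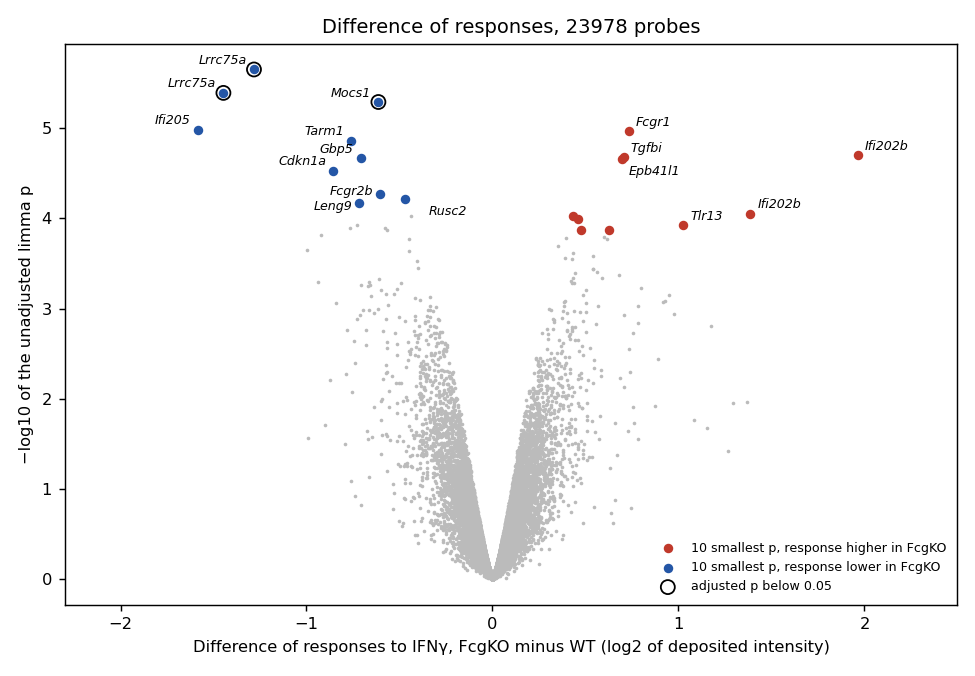
Difference of responses to IFNγ (FcgKO minus WT, log2 of deposited intensity, horizontal axis) against the −log10 of the unadjusted limma p (vertical axis) for 23978 probes. The 10 probes with the smallest p in each direction are coloured, and the 3 ringed probes, both of Lrrc75a and 1 of Mocs1, are those with an adjusted p below 0.05, all to the left of 0.

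The genes called were Lrrc75a, with 2 probes, and Mocs1, and IFNγ raised both less in FcgKO cells. Lrrc75a encodes a leucine-rich repeat protein. Its first probe read 255 and 234 in FcgKO cells with IFNγ and 177 and 164 without, against 585 and 664 in WT cells with IFNγ and 175 and 183 without. Its log2 response to IFNγ was 0.52 in FcgKO cells and 1.80 in WT cells, a difference of -1.28 (SE 0.11) with a limma adjusted p = 0.0409. Both WT arrays with IFNγ stood apart from the other 6 arrays, and the FcgKO responses over the 4 array pairs, 0.40 to 0.64, did not overlap the WT ones, 1.68 to 1.92. The second probe read 327 and 300.4 in FcgKO cells with IFNγ and 239 and 228 without, against 818 and 926 in WT cells with IFNγ and 219 and 258 without, a difference of -1.45 (SE 0.13) with a limma adjusted p = 0.0409. The other two probes of Lrrc75a lay near the array median on all arrays, with differences of -0.04 and 0.01.

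Mocs1 encodes the enzyme of the first step of molybdenum cofactor synthesis. It read 746 and 735 in FcgKO cells with IFNγ and 656 and 644 without, against 1367 and 1348 in WT cells with IFNγ and 788 and 769.8 without. The response was 0.19 in FcgKO cells and 0.80 in WT cells, a difference of -0.61 (SE 0.06) with a limma adjusted p = 0.0409. Replicates lay close together in every group, and again both WT arrays with IFNγ were the highest of the 8.

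These 3 calls were not kept in most fits that left out 1 array. Such a fit leaves 1 sample in a group, and the reason for the loss was not tested. Without FcgKO IFNγ replicate 2, FcgKO unstimulated replicate 1 or either WT unstimulated replicate, limma called 0 probes (at an unadjusted p below 0.05, 1641, 1233, 1495 and 2056, in that order). Without FcgKO unstimulated replicate 2 it called 3 others, all higher, of Ifi202b, Ifit3 and Rsad2, and without either WT IFNγ replicate it called 1, of Ifi205, lower. Without FcgKO IFNγ replicate 1 it called 34, 16 higher and 18 lower, among them the 3 probes of Lrrc75a and Mocs1. The difference itself moved little: over these fits it stayed between -1.37 and -1.19 for the first Lrrc75a probe, -1.56 and -1.33 for the second, and -0.63 and -0.60 for Mocs1. With 1 probe per gene limma called 0 of 16593 genes, with 1200 at an unadjusted p below 0.05, and that setting keeps 1 of the 2 called Lrrc75a probes. Mocs1 was called in 5 of 17 alternative fits, and it was not called with a background offset of 16, among brighter probes or with an intensity trend in the prior (adjusted p up to 0.637 over the alternatives).

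The 20 probes with the smallest p, 10 a direction, came from 18 genes, and those beyond the 3 called are given as values only. All 20 had responses that did not overlap between the genotypes, against 19.2% of all probes. For 18 of them the gap between FcgKO and WT cells was larger with IFNγ than without. Both counts largely follow from choosing probes by the p of this same difference, so they are a description and not support. Of the 10 with a lower response in FcgKO cells, 8 were higher with IFNγ on every pair of WT arrays and 5 on every pair of FcgKO arrays. Of the 10 with a higher response, 5 were lower with IFNγ on every pair of WT arrays and 8 were higher on every pair of FcgKO arrays.

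Among those with the lower response, Ifi205, an IFN-inducible member of the IFI200 (PYHIN) family of DNA-binding proteins, had the most negative difference of all 23978 probes. It read 94.0 and 90.4 in FcgKO cells with IFNγ and 96.2 and 95.5 without, against 314 and 415 in WT cells with IFNγ and 120.2 and 130.4 without, a difference of -1.58 (SE 0.16) with a limma adjusted p = 0.0517. All 4 FcgKO arrays lay below the array median, at the low end of the scale, while both WT arrays with IFNγ stood clear of the rest. A second Ifi205 probe gave -0.24 (SE 0.08).

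Tarm1 encodes an activating receptor of myeloid cells that signals through the γ chain. It read 239 and 220.4 in FcgKO cells with IFNγ and 100.1 and 101 without, against 467 and 447 in WT cells with IFNγ and 123 and 114 without, and its difference was -0.76 (SE 0.08) with a limma adjusted p = 0.052. Both genotypes were higher with IFNγ, and both stimulated WT arrays were above both stimulated FcgKO arrays. Gbp5, a guanylate-binding protein of cell-autonomous defence, showed the same order at a higher level, with 619.8 and 686 in FcgKO cells with IFNγ and 88.4 and 92.1 without, against 1112 and 1142 in WT cells with IFNγ and 96.4 and 94.5 without. Its responses were 2.85 in FcgKO cells and 3.56 in WT cells, a difference of -0.71 (SE 0.08) with a limma adjusted p = 0.052, and unstimulated arrays of both genotypes lay below the array median.

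Cdkn1a, which encodes an inhibitor of cyclin-dependent kinases, read 1211 and 1065 in FcgKO cells with IFNγ and 1102 and 1099 without, against 2106 and 1989 in WT cells with IFNγ and 1144 and 1051 without. Its response was 0.05 in FcgKO cells and 0.90 in WT cells, a difference of -0.85 (SE 0.10) with a limma adjusted p = 0.0642, and its other two probes gave -0.67 and -0.64. The other probes of this direction were those of Fcgr2b, Rusc2 and Leng9, with differences of -0.61, -0.47 and -0.72 and adjusted p between 0.106 and 0.115. Fcgr2b encodes the inhibitory IgG receptor, and the probe read 977 and 950.4 in FcgKO cells with IFNγ and 1461 and 1534 without, against 916 and 977 in WT cells with IFNγ and 998 and 935 without. The FcgKO arrays with IFNγ were level with all 4 WT arrays, and the unstimulated FcgKO arrays were the high ones. The brightest Fcgr2b probe gave -0.22 and the dimmest -0.11, and the other two Rusc2 probes gave -0.57 and 0.12.

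Among those with the higher response in FcgKO cells, Fcgr1 encodes the high-affinity IgG receptor, which pairs with the γ chain. It read 1967 and 2066 in FcgKO cells with IFNγ and 792 and 847 without, against 986 and 932 in WT cells with IFNγ and 648 and 646 without. The response was 1.30 in FcgKO cells and 0.57 in WT cells, a difference of 0.73 (SE 0.07) with a limma adjusted p = 0.0517. Both FcgKO arrays with IFNγ were far above both WT arrays with IFNγ, and unstimulated FcgKO arrays were also above unstimulated WT arrays.

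Ifi202b, another gene of the IFI200 family, had the highest difference of all 23978 probes. Its best-ranked probe read 1076 and 1287 in FcgKO cells with IFNγ and 249.5 and 359.9 without, against 94.6 and 95.3 in WT cells with IFNγ and 95.5 and 93.2 without, a difference of 1.96 (SE 0.22) with a limma adjusted p = 0.052. All 4 WT arrays lay below the array median, so a level above it was read on FcgKO arrays only. A second probe read 484 and 627 in FcgKO cells with IFNγ and 190.3 and 241 without, against 97.2 and 98.6 in WT cells with IFNγ and 98.3 and 101 without with a difference of 1.39, while another probe lay below the array median on all 8 arrays, with -0.06.

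Tgfbi, which encodes an extracellular matrix protein induced by TGFβ, read 1244 and 1203 in FcgKO cells with IFNγ and 1057 and 1072 without, against 685 and 760.4 in WT cells with IFNγ and 1015 and 1032 without. Its response was 0.20 in FcgKO cells and -0.50 in WT cells, a difference of 0.70 (SE 0.08) with a limma adjusted p = 0.052. A brighter Tgfbi probe gave 0.37. Epb41l1, of the band-4.1 family of membrane skeleton proteins, was likewise lower with IFNγ on every pair of WT arrays and higher on every pair of FcgKO arrays, at 277 and 292 in FcgKO cells with IFNγ and 262 and 245 without, against 194 and 191 in WT cells with IFNγ and 287 and 269 without, with a difference of 0.70 (SE 0.08) and a limma adjusted p = 0.052. A brighter Epb41l1 probe gave 0.56 and a dimmer one 0.03.

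Tlr13, the endosomal receptor for bacterial ribosomal RNA, was lower with IFNγ in both genotypes, and less so in FcgKO cells. It read 1075 and 1195 in FcgKO cells with IFNγ and 1771 and 1869 without, against 576 and 624 in WT cells with IFNγ and 2186 and 1753 without, with responses of -0.68 in FcgKO and -1.71 in WT cells and a difference of 1.02 (SE 0.15) (limma adjusted p = 0.130). A second probe gave 0.47. S100a11, a calcium-binding protein gene, read 7208 and 6703 in FcgKO cells with IFNγ and 4750.5 and 4237 without, against 6059 and 6208 in WT cells with IFNγ and 5993 and 6240.1 without, a difference of 0.63 (SE 0.09). The unstimulated FcgKO arrays were the lowest of the 8 and the stimulated ones the highest. The rest of this direction were Rnase2a (0.43), Plgrkt, a plasminogen receptor gene (0.46), and Stard7, a lipid transfer protein gene (0.48), each with a limma adjusted p = 0.130. Other Stard7 probes gave 0.09 and -0.02.

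**Figure D2:**
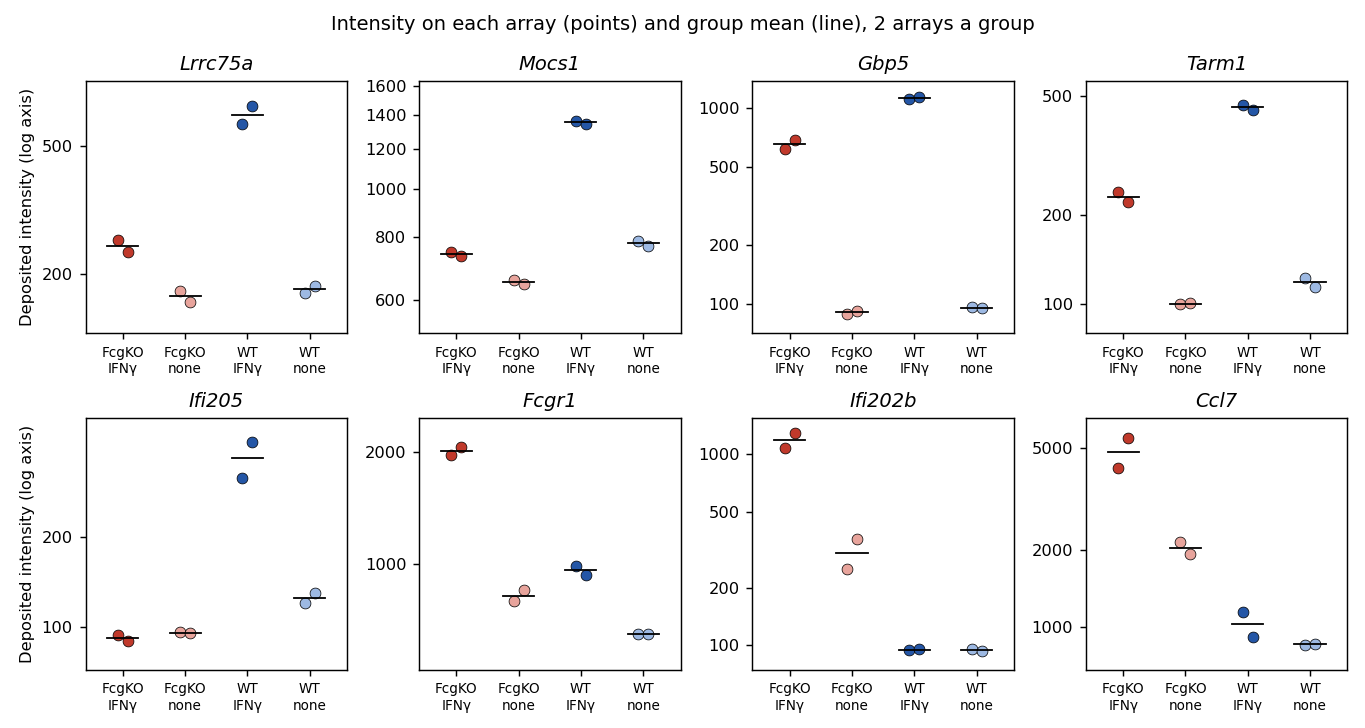
Deposited intensity (log axis, with its own range in each panel) on each of the 8 arrays for 8 genes, with FcgKO left of WT and IFNγ left of unstimulated (none). Points are arrays and lines are means of 2. For Lrrc75a, Mocs1, Gbp5, Tarm1 and Ifi205 the WT arrays with IFNγ are the highest, and for Fcgr1, Ifi202b and Ccl7 the FcgKO arrays with IFNγ are.

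The promoters of 5 of the 18 genes with the smallest p, chosen after their values were seen, are printed here and were read for the motifs of the IFNγ pathway, to show which of their letters the 250 bases before the annotated start hold. The sequences and coordinates are from RefSeq, build GRCm38.p6, and each runs 5′ to 3′ on the gene's strand. Capitals mark matches on either strand to GAS (TTCNNNGAA), to an ISRE core (TTTC and TTTC parted by 2 free bases, or GAAA and GAAA on the other strand) and to a κB motif (GGG and TTTCC parted by 2 free bases, or GGAAA and CCC). None of the matches shown overlaps another. Over the 32851 windows of that length in the promoter table, 7.02% held GAS, 2.98% the ISRE core and 1.41% the κB motif. A match is a description of the letters and not a binding site.
Mocs1 (chr17:49428114-49428363, plus strand): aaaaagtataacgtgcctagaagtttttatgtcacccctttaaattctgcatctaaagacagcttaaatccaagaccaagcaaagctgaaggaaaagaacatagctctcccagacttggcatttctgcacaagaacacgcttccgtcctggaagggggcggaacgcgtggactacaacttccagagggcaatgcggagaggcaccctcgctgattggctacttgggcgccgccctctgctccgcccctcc
Gbp5 (chr3:142496684-142496933, plus strand): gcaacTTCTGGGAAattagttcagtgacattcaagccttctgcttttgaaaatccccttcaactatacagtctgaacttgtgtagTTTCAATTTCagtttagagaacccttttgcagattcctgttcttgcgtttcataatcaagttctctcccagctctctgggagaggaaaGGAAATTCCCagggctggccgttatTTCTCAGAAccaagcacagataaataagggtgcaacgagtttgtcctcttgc
Ifi205 (chr1:174031756-174032005, minus strand): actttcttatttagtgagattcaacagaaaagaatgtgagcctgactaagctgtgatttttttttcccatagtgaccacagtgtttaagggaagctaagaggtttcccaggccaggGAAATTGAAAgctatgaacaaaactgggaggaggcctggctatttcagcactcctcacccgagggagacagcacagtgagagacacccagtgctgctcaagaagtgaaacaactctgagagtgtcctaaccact
Fcgr1 (chr3:96293970-96294219, minus strand): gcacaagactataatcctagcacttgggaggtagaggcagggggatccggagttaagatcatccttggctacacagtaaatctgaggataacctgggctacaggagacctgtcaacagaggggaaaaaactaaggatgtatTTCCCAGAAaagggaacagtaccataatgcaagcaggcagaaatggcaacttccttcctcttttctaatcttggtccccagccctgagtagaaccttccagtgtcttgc
Ifi202b (chr1:173982845-173983094, minus strand): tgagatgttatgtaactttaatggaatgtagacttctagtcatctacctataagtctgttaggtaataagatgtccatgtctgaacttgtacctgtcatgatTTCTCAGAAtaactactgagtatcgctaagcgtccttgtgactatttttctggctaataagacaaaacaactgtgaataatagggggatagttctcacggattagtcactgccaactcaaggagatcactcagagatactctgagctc

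The Gbp5 window held 2 GAS matches, 1 ISRE core and 1 κB match. Fcgr1 and Ifi202b held 1 GAS match each, Ifi205 held 1 ISRE core and no GAS, and Mocs1 held none of the 3 motifs. All 9 genes with a higher response and 8 of the 9 with a lower one were matched to the promoter table, and Lrrc75a was not. Of the 11 windows of the genes with a higher response, 3 held GAS and 1 the ISRE core, against 1 and 2 of the 11 windows of those with a lower response.

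The size of the response was set against the difference next. The mean response over both genotypes (a contrast orthogonal to the difference in this balanced design) was called higher with IFNγ for 1516 probes (6.32%) and lower for 2366 (9.87%). Over the 1516 probes the median difference was -0.0017 and 50.1% were negative, so the induced probes as a whole were not shifted. Over the 73 probes with a mean rise of at least 4-fold the median was 0.15, 32.9% were negative, and responses did not overlap in 28.8% on the higher and 12.3% on the lower side in FcgKO cells. On the linear intensity scale 47.9% of these 73 probes had a smaller rise in FcgKO cells. Over the 49 probes with a mean fall of at least 2-fold the median was 0.17, with non-overlapping responses in 32.7% on the higher side and 4.08% on the lower, which is a smaller fall in FcgKO cells. Of these, 26.5% were negative on the log2 scale and 51.0% on the linear scale.

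**Figure D3:**
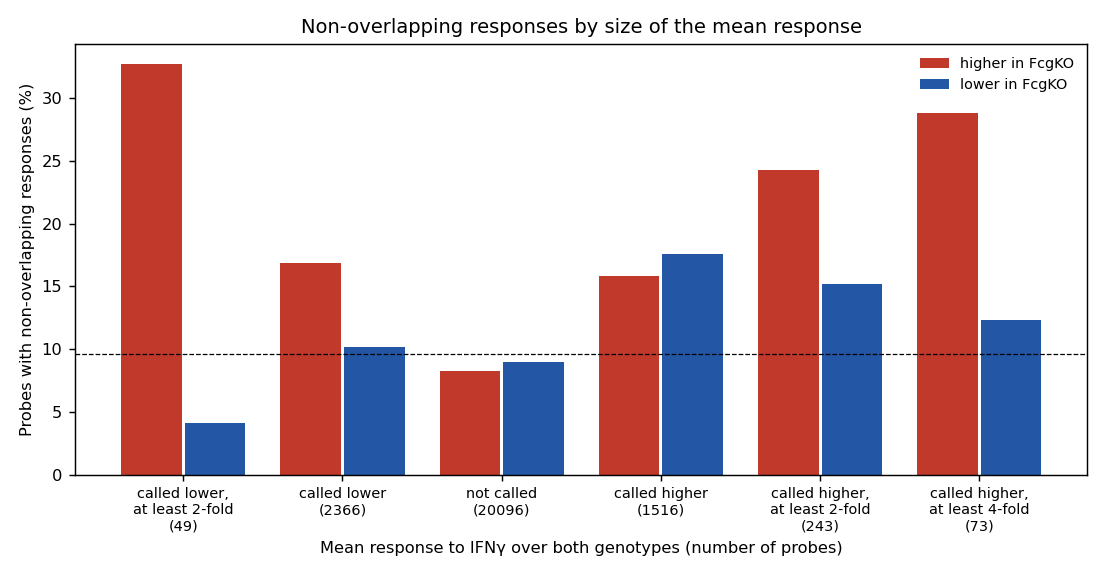
Share of probes (%) whose responses do not overlap between the genotypes, higher (red) or lower (blue) in FcgKO cells, by the mean response to IFNγ, with the number of probes under each class. The dashed line is the 9.58% of all probes that are higher, and in the class that fell at least 2-fold the shares are 32.7% higher and 4.08% lower.

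The 5 probes with the strongest mean responses were those of Cxcl9, Cxcl10, Gbp2, Upp1 and Calhm6, and 0 of the 5 passed the test of the difference (limma adjusted p between 0.451 and 0.919). Cxcl9, a chemokine for T cells, read 14586 and 15936 in FcgKO cells with IFNγ and 103 and 114 without, against 16195 and 16471 in WT cells with IFNγ and 111 and 105 without and had a difference of -0.10 (SE 0.09), within the spread of the replicates. Upp1, the uridine phosphorylase gene, read 9644 and 9812 in FcgKO cells with IFNγ and 247 and 228 without, against 13028 and 12109.7 in WT cells with IFNγ and 541 and 388 without. Its difference was 0.58 (SE 0.19) on the log2 scale, but its rise in linear intensity was smaller in FcgKO cells, where both its unstimulated and its stimulated level were below those of WT cells. Calhm6 had a difference of -0.27, with responses of 4.42 in FcgKO and 4.68 in WT cells. Cxcl10 was at 7668 and 4657 in FcgKO cells with IFNγ and 99.2 and 164 without, against 11841 and 13589 in WT cells with IFNγ and 220.2 and 169 without, and its difference of -0.49 (SE 0.40) was within the spread of the replicates, which lay far apart in FcgKO cells with IFNγ.

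**Figure D4:**
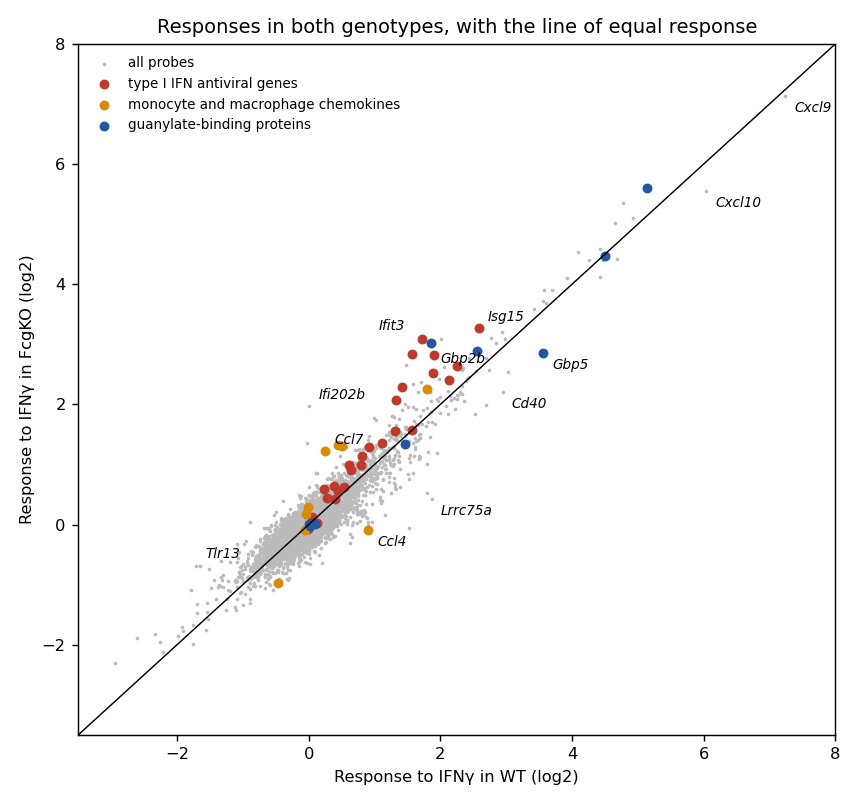
Log2 response to IFNγ in FcgKO cells (vertical axis) against that in WT cells (horizontal axis) for all probes, with 3 gene lists coloured (1 probe per gene) and the line of equal response drawn. Most of the 27 type I IFN antiviral genes lie above the line, while Gbp5, Cd40, Lrrc75a and Ccl4 lie below it.

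Gene lists were described with 1 probe per gene. Over all 16593 genes the median difference was -0.00196, responses did not overlap for 9.5% on the higher and 10.2% on the lower side, and 2 (0.0121%) were represented by a probe that limma called in the fit over all probes. In 25 lists of pathway genes 0 members passed the test, so members are given by their values.

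The type I IFN antiviral genes, which hinder viral replication and are driven by the ISRE motif, had a median difference of 0.27. Of the 27 measured, 23 were positive and 4 negative, the responses of 12 did not overlap on the higher and of 1 on the lower side, and 12 were higher and 0 lower at an unadjusted p below 0.05. Leaving out single arrays kept the median between 0.19 and 0.34. Ifit2, whose product binds RNA and hinders translation, read 705 and 915 in FcgKO cells with IFNγ and 104 and 124 without, against 452 and 494 in WT cells with IFNγ and 125 and 128 without, a difference of 0.92 (SE 0.18) with a limma adjusted p = 0.283. In FcgKO cells both stimulated arrays were above both stimulated WT arrays, and both unstimulated arrays were below both unstimulated WT arrays. Isg15, the ubiquitin-like modifier, read 2151 and 2481 in FcgKO cells with IFNγ and 214 and 269 without, against 1693 and 1641 in WT cells with IFNγ and 308 and 251 without, a difference of 0.69 (SE 0.18) with a limma adjusted p = 0.433. Ifit3 had the highest difference of the list, at 1.37 (SE 0.41), followed by Rsad2, which encodes viperin, at 1.26 (SE 0.51), and these were named after their values were seen. Oas3 (0.35, with a second probe at -0.10) and Rtp4 (0.38) were dimmer, and Parp9 was the lowest at -0.10. The ISRE core was in 8 of the 23 promoter windows of this list (34.8%) and GAS in 4 (17.4%), with 19 of the 27 genes matched to the promoter table. For the guanylate-binding proteins, whose median difference was -0.03, the ISRE core was in 5 of 6 windows (83.3%) and GAS in 2 (33.3%), with 5 of 10 genes matched.

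The monocyte and macrophage chemokines had the highest median of the lists, 0.31 over 9 genes, of which 3 did not overlap on the higher and 1 on the lower side. Of the 9, 6 were positive and 3 negative, the latter being Ccl4, Ccl3 (-0.50) and Ccl24 (-0.02). Without FcgKO IFNγ replicate 1 the median was 0.53, and without replicate 2 of that group it was 0.19. Ccl7 read 4169 and 5443 in FcgKO cells with IFNγ and 2149 and 1925 without, against 1143 and 914 in WT cells with IFNγ and 854 and 861 without, a difference of 0.97 (SE 0.20) (limma adjusted p = 0.287). Ccl2, also a ligand of the monocyte receptor CCR2, read 1673 and 1780.0 in FcgKO cells with IFNγ and 758 and 622 without, against 513 and 531 in WT cells with IFNγ and 459 and 323 without, a difference of 0.89 (SE 0.22), and Ccl8 read 232 and 281 in FcgKO cells with IFNγ and 96.0 and 109.8 without, against 131 and 147 in WT cells with IFNγ and 97.9 and 96.7 without, a difference of 0.80 (SE 0.14). All 3 were highest on the FcgKO arrays with IFNγ, and their responses in WT cells were 0.25, 0.44 and 0.51. Ccl4, another chemokine gene of the list, went the other way, at 1912 and 968 in FcgKO cells with IFNγ and 1327 and 1572 without, against 2751 and 2673 in WT cells with IFNγ and 1477 and 1421 without, with a difference of -0.99 (SE 0.37) and 2 FcgKO replicates with IFNγ that lay far apart.

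Among the IFNγ-inducible GTPases, the 7 genes listed as immunity-related GTPases were all positive, between 0.10 for Iigp1 and 0.26 for Gvin1. Apart from Gvin1, they belong to a family that acts at the membranes of pathogen vacuoles. The 2 other, dim probes of Gvin1 gave -0.06 each, and Igtp was at 0.15. The list's median was 0.16, with 2 genes not overlapping on the higher side, Tgtp1 and Gvin1, and 0 on the lower. The 10 guanylate-binding proteins were spread on both sides, with a median of -0.03, 3 positive and 7 negative. Responses did not overlap for the 3 positive members, Gbp2, Gbp2b and Gbp7 (0.33), on the higher side and for 1, Gbp5, on the lower. The other negative members lay between -0.11 and -0.005, and 3 of the 10 genes were below the array median on every array. Over the alternative fits that kept all arrays the median lay between -0.11 and 0.15. Gbp5 and Gbp2b were the list's lowest and highest members. Gbp2b read 546 and 1179 in FcgKO cells with IFNγ and 99.0 and 99.1 without, against 374 and 405 in WT cells with IFNγ and 107 and 107 without, a difference of 1.16 (SE 0.40), with its 2 FcgKO replicates with IFNγ far apart. Gbp2 reached 20466 and 20466 in FcgKO and 21486 and 19689 in WT cells with IFNγ, near the highest value of the arrays, 22479, and its difference was 0.46 (SE 0.18). Its unstimulated values were 361 and 495 in FcgKO and 601 and 568 in WT cells.

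The 11 genes of MHC class II presentation had a median of 0.16, 10 positive and 1 negative, with Ciita, the class II transactivator, highest at 0.54 and H2-DMa at 0.32. Only 1 of them, Ciita, had responses that did not overlap, and the median was 0.01 without FcgKO IFNγ replicate 1 and 0.29 at the highest over single arrays left out. MHC class I presentation was near 0, at 0.03 over 20 genes, with 2 not overlapping on the higher and 4 on the lower side. H2-M3 (0.30) and Tap2 (-0.29) were its highest and lowest members.

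In the list of IFN receptors and signalling, 3 of 24 genes did not overlap on the higher and 6 on the lower side, around a median of 0.04. Usp18, which restrains the type I IFN receptor, was the highest at 1.08. Ptpn1, a phosphatase of JAK2, read 384 and 470.2 in FcgKO cells with IFNγ and 403 and 378 without, against 606 and 595 in WT cells with IFNγ and 276 and 389.6 without, a difference of -0.75 (SE 0.22), and Stat3 read 957 and 1182 in FcgKO cells with IFNγ and 668 and 641 without, against 1359.5 and 1440.5 in WT cells with IFNγ and 659 and 553 without, a difference of -0.51 (SE 0.16). The other two Stat3 probes gave -0.24 and 0.08. Batf2 (-0.32) and Cish (-0.39) were on the lower side as well.

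Inflammatory cytokines and NF-κB targets had a median of -0.02 over 23 genes, with 2 not overlapping on the higher and 5 on the lower side. Vcam1, an adhesion molecule, read 148 and 131 in FcgKO cells with IFNγ and 94.7 and 99.9 without, against 203 and 256 in WT cells with IFNγ and 94.0 and 97.5 without, a difference of -0.73 (SE 0.15), and Il27, a cytokine subunit gene, had -0.42. Tnfaip3 (-0.41) encodes a brake on NF-κB. Icam1 was positive at 0.34 on the log2 scale, with a smaller rise in FcgKO cells in linear intensity. In a separate list, that of co-stimulation and checkpoint ligands, Cd40 was the lowest member. Cd40, the co-stimulatory receptor of the macrophage for T cell help, read 4799.9 and 3488 in FcgKO cells with IFNγ and 928 and 843 without, against 5854 and 5737 in WT cells with IFNγ and 728 and 776 without, a difference of -0.74 (SE 0.18) with a limma adjusted p = 0.407, and its other 3 probes were negative too.

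The list of ITAM adaptors and partner receptors had a median of 0.07 over 25 genes, with 3 not overlapping on the higher and 1 on the lower side. That 1 was Clec4e, the γ chain's partner Mincle, at 3564 and 3256 in FcgKO cells with IFNγ and 3383 and 3460.3 without, against 8678 and 8844 in WT cells with IFNγ and 6099.9 and 5088 without and a difference of -0.66 (SE 0.12) (limma adjusted p = 0.241). FcgKO arrays were level with and without IFNγ, and WT arrays were higher with it. Cd300lf was the highest member at 0.48. In the 22 ITAM signalling proteins, with a median of 0.06, Malt1, the paracaspase downstream of SYK and CARD9, read 154 and 155 in FcgKO cells with IFNγ and 139 and 135 without, against 299 and 307 in WT cells with IFNγ and 171 and 192 without, a difference of -0.57 (SE 0.08), and Src was on the same side (-0.56). Inpp5d, a lipid phosphatase that opposes PI3K signalling, was positive (0.39), as was Pik3cd (0.42). Other Pik3cd probes gave 0.04 and -0.01, and a second Src probe gave -0.07. Fc receptors had a median of 0.02 over 10 genes, with Fcgr1 the highest and Fcgr4, another IgG receptor that pairs with the γ chain, the lowest at -0.71 (limma adjusted p = 0.856).

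**Figure D5:**
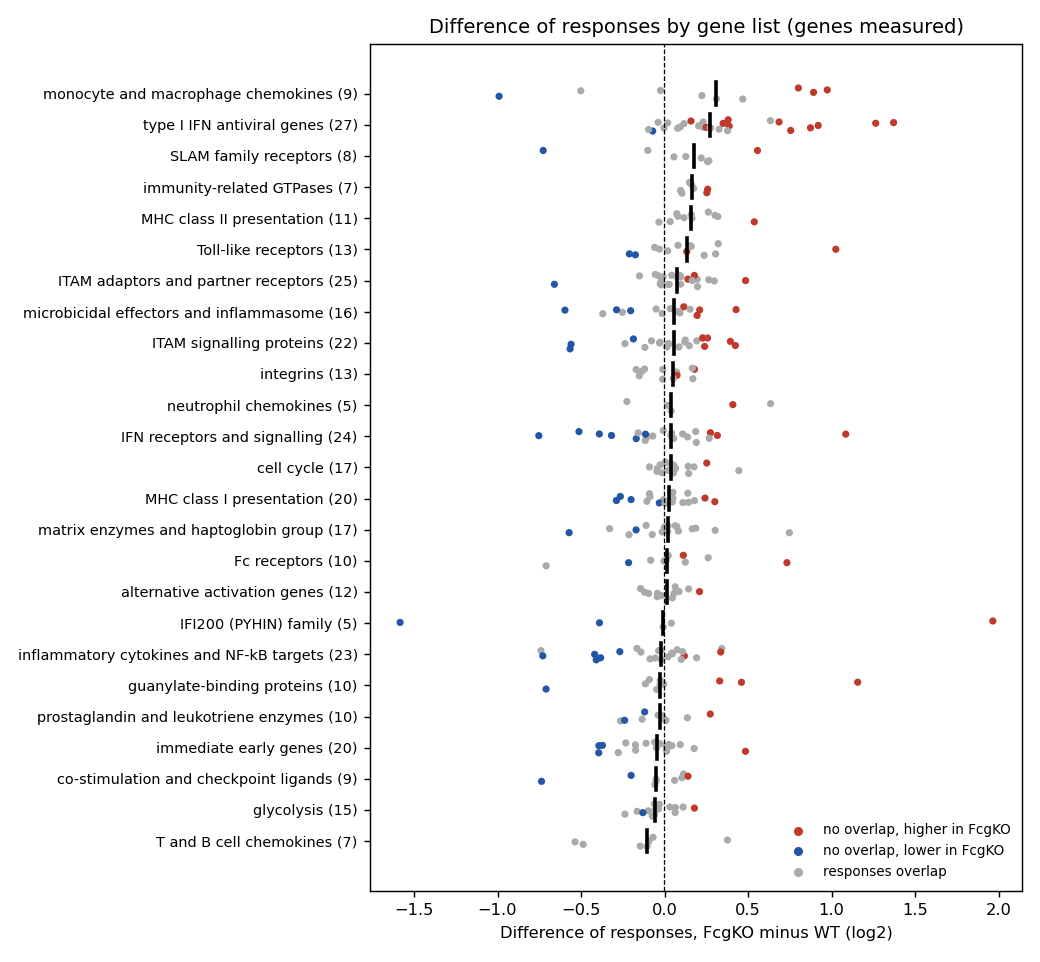
Difference of responses (FcgKO minus WT, log2, horizontal axis) of each measured member of 25 gene lists, with the number of genes in brackets, 1 probe per gene. Bars are list medians, the dashed line is the median of all genes, and colours mark responses that do not overlap. The medians run between -0.10 for T and B cell chemokines and 0.31 for monocyte and macrophage chemokines.

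In the other lists the medians lay between -0.10 and 0.17. They were 0.17 for SLAM family receptors, 0.13 for Toll-like receptors, 0.06 for microbicidal effectors, 0.05 for integrins and 0.04 for neutrophil chemokines and for cell cycle genes. They were 0.02 for matrix enzymes and the haptoglobin group, 0.01 for alternative activation genes, -0.0084 for the IFI200 family, -0.03 for prostaglandin and leukotriene enzymes and -0.04 for immediate early genes. Co-stimulation and checkpoint ligands were at -0.05, glycolysis at -0.06 and T and B cell chemokines at -0.10. Of all 25 list medians, 13 took the other sign without some single array and 10 kept their sign but moved by over 1.5 times, and the 2 that stayed within that were those of the type I IFN antiviral genes and the immunity-related GTPases. Within these other lists, Nos2, the inducible nitric oxide synthase gene, had -0.60 (SE 0.22), Casp4 had 0.43 (SE 0.09), and Timp1, an inhibitor of matrix metalloproteinases, had -0.57 (SE 0.21). Without single arrays Nos2 lay between -0.86 and -0.33 and Timp1 between -0.83 and -0.31. Fos (0.48) and Egr2 (-0.39) were on opposite sides among the immediate early genes.

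Genes near Fcer1g on chromosome 1 were examined as the neighbours of the altered locus, with their order taken from the gene table only. Among 104 probes of the 100 annotated genes on each side, 0 were called, the median difference was 0.0092 and responses did not overlap in 11.5% on the higher and 6.73% on the lower side. An absolute difference of at least 0.5 was found in 5 of these probes (4.81%), against 0.671% of all probes. Slamf7, a SLAM family receptor gene 27 genes away, read 169.9 and 196 in FcgKO cells with IFNγ and 100.1 and 102 without, against 335 and 358 in WT cells with IFNγ and 119 and 112 without, a difference of -0.73 (SE 0.10) (limma adjusted p = 0.130). Cd244a (0.56, with a second probe at 0.04) lies 25 genes away and Fcgr2b 41 genes on the other side, while Aim2, at 93 genes, had 0.04. Ifi204 (-0.39), Ifi202b and Ifi205 lie 103, 109 and 111 genes away, just outside that window. With a window of 150 genes, chosen after the data were seen, 8 of 153 probes (5.23%) had a difference of at least 0.5 and 0 were called.

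Markers of other cell types were read beside these results, and 0 of them passed the test of the difference. The median difference was 0.01 for large peritoneal macrophages, -0.03 for small peritoneal macrophages and monocytes, -0.06 for B cells, 0.02 for T and NK cells, 0.01 for neutrophils, -0.02 for eosinophils, -0.03 for dendritic cells and -0.02 for mesothelial cells and fibroblasts, and 0.08 for macrophages. Single macrophage markers ran between -0.75 for Mertk and 0.73 for Fcgr1. The 8 small peritoneal macrophage and monocyte markers summed to 2110 to 2520 in FcgKO cells with IFNγ and 1895 to 2137 in unstimulated FcgKO cells, against 1794 to 1968 in WT cells with IFNγ and 1469 to 1641 in unstimulated WT cells. Their median log2 intensity was lower in FcgKO than in WT cells with IFNγ, 7.01 against 7.10, and close without it, 7.01 against 6.98. Sums for large peritoneal macrophages were also higher in FcgKO cells, at 49726 to 50186 against 47222 to 48265 with IFNγ. Those for neutrophils were lower, at 3326 to 3743 against 4474 to 4774 with IFNγ. The part of these cell types and of the mast cell markers in the differences of chemokine, antiviral and inflammatory genes was not tested.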

How the data were processed

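Each sample has a column of linear intensities, deposited by the authors, that run between 82.1 and 22479. Once sorted, the columns matched to within 0.0058 in log2, which shows that the authors' intensities had been normalised between arrays before deposit. Per the submitters' processing notes GenomeStudio was used, and its method and version are not given in the sources used here. A second deposited file holds 16 columns, 8 of signal and 8 of detection p, whose names match no sample's labels, and they were not used. No detection call was therefore made, and "below the array median" marks dim values. Slide and scan time are not given in the sources used here.

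The platform annotation named 23978 of 25697 probes by 1 gene symbol, 1719 by none and 0 by several, and 23962 matched the reference genes by identifier. A limma model (version 3.58.1, under R 4.3.3, files read with version 1.17.8 of data.table) gave each group of log2 intensities its own mean, and eBayes moderated the variances. Residual and prior df were 4 and 3.85, and the prior SD was 0.0536. The contrast was the FcgKO response minus the WT response, with Benjamini-Hochberg adjustment over all named probes and a threshold of 0.05. Responses did not overlap where every pairing of a stimulated and an unstimulated array of one genotype exceeded every pairing of the other.

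Genes named were those called, the 10 probes with the smallest p in each direction with provisional names skipped, up to 4 members with the smallest p of each of 25 gene lists, and the 5 strongest mean responses. Some further list members, mostly the highest or lowest, were named after their values were seen. In lists, the probe with the highest mean stood for a gene. The comparison, the lists and the 10 marker lists were chosen with earlier results of these data known. The fit was tested on simulated data. Alternatives were background correction (normexp with an offset of 50 or 16), a filter on dim probes, a further quantile normalisation, 1 probe per gene, all probes, an intensity trend in the prior, a replicate block, leaving out each array, and the linear scale.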

Additional observations from a re-analysis of the deposited data

Results flagged for a closer look

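The responses of the genotypes differed by limma's test of the difference itself for Lrrc75a, by -1.28 and -1.45 on the log2 scale at its 2 called probes, and for Mocs1, by -0.61, with the WT arrays given IFNγ the highest of the 8 in each case.

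For 6 further named probes every pairing of arrays went one way in FcgKO cells and the opposite way in WT cells, while the test of the difference did not pass after adjustment. With IFNγ, Tgfbi (0.70), Epb41l1 (0.70) and Plgrkt (0.46) were higher in FcgKO and lower in WT cells. Ifi205 (-1.58), Egr2 (-0.39) and Ier3 (-0.37), an immediate early gene of cell stress, were lower in FcgKO and higher in WT cells, and Ifi205 lay below the array median on all 4 FcgKO arrays. Over all 23978 probes, 502 (2.09%) were up on every pair in FcgKO and down on every pair in WT cells, and 531 (2.21%) were the reverse.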

How the results depend on the processing

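The direction of the difference was kept by 67 of 71 named probes under every alternative that held the probe. Those alternatives were the linear scale with 17 fits for 66 probes and 15 for 5. Most of these probes were chosen for a small p on the same arrays, so a kept direction is not independent support. On the linear scale 98.3% of all probes kept their sign. Ifit3, Rsad2, Usp18 and some other list members named after their values were seen are not among the 71. The number of calls was not kept. Limma called 3 probes in the main setting, 0 higher and 3 lower, and 3 with a further quantile normalisation or with all probes. It called 13 with a background offset of 50 (6 higher, 7 lower), 5 with an offset of 16 (2 higher), 4 among brighter probes (1 higher), 21 with an intensity trend in the prior (9 higher, 12 lower) and 0 with 1 probe per gene (0 lower, 1200 at an unadjusted p below 0.05). With the offset of 50 and 1 probe per gene, added once the data had been seen, it called 3 (1 higher), of Ifi202b, Ifi205 and Lrrc75a. Leaving out single arrays gave 0 to 34 calls, 0 to 16 higher and 0 to 18 lower. Called probes that stand for a gene in the lists numbered 4, 2, 2 and 8 with the offset of 50, the offset of 16, brighter probes and the trend, and 0 to 9 without single arrays. Near Fcer1g the trend gave 2 calls. The cause of these changes was not tested. Non-overlapping responses numbered 2609 among brighter probes, of which fewer were tested, and 8146 to 8856 without single arrays, which leaves fewer pairs to overlap.

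With replicate number as a block the fit called 11 probes, 2 higher and 9 lower, 3 of them standing for a list gene, and among them probes of Ifi205, Ifi202b, Gbp5, Tarm1 and Cdkn1a. Deviations of same-numbered samples correlated with r between -0.049 and 0.25 over 6 pairs of groups, 3 of them above 0.1, so the numbers were not taken to pair the samples.

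With the offset of 16, Cxcl10 was at 0.11 and Aim2 at -0.0303, and without single arrays Aim2 lay between -0.024 and 0.10. In linear intensity Upp1 was at -2614 and Icam1 at -1545.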
